A study of Homo sapiens with 4 samples.

Results

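The integrated stress response and amino acid genes are 42 genes that respond to, or supply, the pathway by which cells meet a shortage of amino acids or misfolded protein. They were taken from a fixed list of names. Each was read at the brightest of its probes detected on at least 2 of 4 arrays, and counted as measured where such a probe was found. Detection means a signal above the negative controls of the same array, at a detection p-value under 0.05. Of the 42 genes 38 were measured, among 11311 measured genes in all. CHAC1, SLC1A4 and ALDH1L2 were not detected on any array, and no probe was named for CARS1.

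The arrays compared cells labelled MDA-MB-468, an established human breast cancer line, as wild type (2 arrays) and as mH2A1.2 knockout (2 arrays). macroH2A1.2 is a histone H2A variant, a splice form of the gene MACROH2A1. All 4 arrays hold total RNA, and the labels name no treatment, and give neither how the knockout was made, nor whether it is 1 clone, nor whether replicates came from separate cultures. The p-values thus rest on the spread among these 4 arrays alone, and that spread may be technical. In bulk RNA, fewer cells that express a gene and less RNA per cell cannot be told apart.

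In this pathway, kinases that sense amino acid shortage, misfolded protein, viral RNA or lack of haem phosphorylate the translation factor eIF2. General translation then slows, while the mRNA of the transcription factor ATF4 is translated more, so that the ATF4 mRNA level does not show how much ATF4 protein a cell holds. ATF4, paired with C/EBP proteins, activates genes that make and import amino acids and charge tRNAs, and later genes that restore translation or promote cell death. In breast cancer the serine pathway enzyme PHGDH is known for gene amplification, and MDA-MB-468 is one of the lines that carry it.

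Several facts of the whole set bear on what follows. The 4 arrays detected between 18753 and 19817 of 47230 probes, with median signals between 142.7 and 146.8. MACROH2A1 read 13.04 and 12.96 in wild type cells and 12.32 and 12.12 in knockout at its brightest probe, on the log2 scale. Its 2 other detected probes went opposite ways, one differing by -1.03 and the other, at 8.89 and 8.56 in wild type cells and 9.71 and 9.30 in knockout, by 0.78. Which probe reads the targeted splice form was not determined here, so these values do not check the knockout label. Knockout replicate 2 stood farther from wild type than knockout replicate 1. A 2-fold difference from the wild type mean was reached by 6.96% of genes upward and 4.77% downward on knockout replicate 2, against 1.96% and 1.28% on knockout replicate 1. For this reason each knockout array is also given apart. Markers of the line matched its label in part. Of those listed as high in it, EGFR, EPCAM, KRT8, KRT18 and KRT19 were measured, though being measured alone is a weak match. EGFR read 8.65 and 8.61 in wild type cells and 8.72 and 9.70 in knockout. In wild type cells it was about as bright as ERBB2, listed as low. KRT18 read between 7.36 and 8.03, EPCAM between 9.21 and 9.44 and KRT8 between 9.97 and 10.62. KRT19 read 8.85 and 9.82 in wild type cells and 11.43 and 11.70 in knockout, differing by 2.23 ± 0.36 (SE, n = 2 arrays per group), at a limma adjusted p of 0.125. PGR and FOXA1, listed as low in the line, were detected on 0 arrays. Against the label, CDH1, KRT5 and CDH3 were detected on 0 arrays, while of the markers listed as low VIM read between 13.86 and 14.08, ERBB2 between 8.44 and 9.11 on all 4 arrays, and ESR1 was detected on both knockout arrays, near background. RB1 and SMAD4, chosen after their values were seen and known to be lost in MDA-MB-468, were detected on every array. The cells are therefore called by their label only.

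The 38 measured genes were split between higher and lower readings in knockout. Their log2 differences (knockout mean minus wild type mean) were positive in 18 and negative in 20, with a median of -0.07 against -0.01 over all genes. By limma's moderated test, adjusted over all genes, 0 members passed at 0.05, as did 0 of the 11311 genes (0%). An unadjusted limma p under 0.05 was reached by 10 members, 3 higher and 7 lower in knockout. Over all genes 20.2% reached it, 9.63% higher and 10.5% lower. Both knockout arrays lay above both wild type arrays in 12 members and below both in 12 (31.6% each), against 25.9% and 28.2% of all genes, or 54.1% either way. A 2-fold difference between group means was found in 3 members, ATF3, PHGDH and, at -1.001, SLC1A5, and in 4.99% of all genes. Scaling the arrays to equal medians, in place of quantile normalization, brought the median over all genes to 0.12 and the members' median to 0.069. The 10 members then became 6, with 4 higher and 2 lower, beside 1283 higher and 209 lower genes of all in place of 1089 and 1193.

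Each knockout array against the 2 wild type arrays gave different counts, in fits that take the spread of the single knockout array to equal that of wild type. On knockout replicate 1 alone, 1 member passed the adjusted limma test, ATF3, which was lower. Of all genes 2.71% passed, 1.53% higher and 1.18% lower. On knockout replicate 2 alone, 11 members passed, 6 higher and 5 lower, against 29.1% of all genes, 15.6% higher and 13.5% lower. The 6 were DDIT3, CEBPB, NUPR1, VLDLR, PHGDH and PYCR1, and the 5 were ATF3, ATF5, PSAT1, SLC3A2 and SLC1A5. The knockout arrays differed from each other by more than 0.5 log2 units in 12 members, 6 of them transcription factors, and the wild type arrays in 3. Over all genes these gaps were found in 25.4% and 4.93%.

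**Figure D1:**
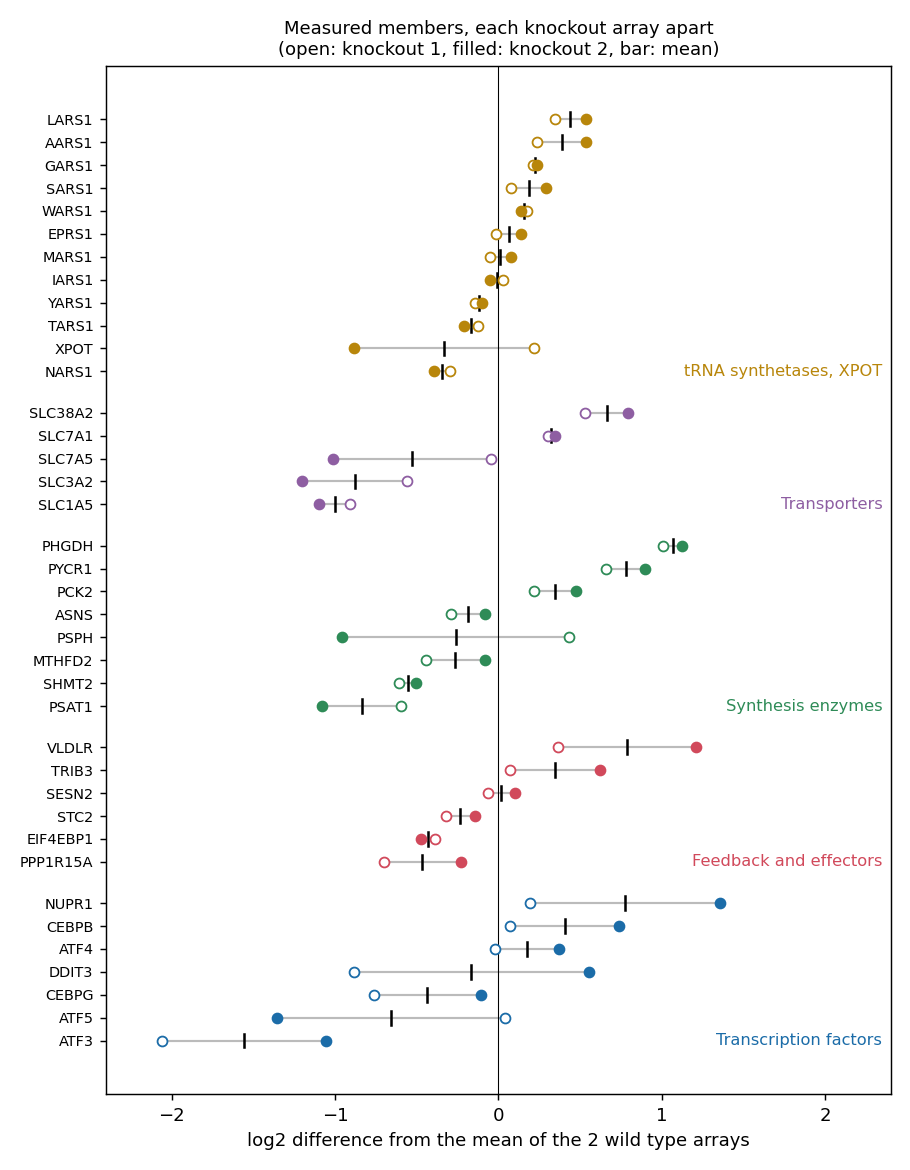
The 38 measured members by role, with the log2 difference of each knockout array from the mean of the 2 wild type arrays on the horizontal axis. Open points are knockout replicate 1, filled points knockout replicate 2, and black bars their mean. ATF3, PSAT1, SLC1A5 and SLC3A2 lie to the left on both arrays and PHGDH and PYCR1 to the right, whereas ATF5, DDIT3, PSPH and XPOT lie on opposite sides of 0 on the 2 arrays.

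Among the transcription factors, ATF3 read lower on both knockout arrays and ATF4 did not separate the groups. ATF4, the central factor of the response, read, in log2 signal, 12.10 and 12.32 in wild type cells and 12.18 and 12.58 in knockout. The groups overlapped, and the difference was 0.17 ± 0.19 (SE, n = 2 arrays per group), with a 95% interval from -0.35 to 0.70. Its dimmer probes differed by 0.09 and 0.11. ATF3, a factor induced by ATF4 and by many other stresses, gave 8.34 and 8.56 in wild type cells and 6.39 and 7.39 in knockout. Both knockout arrays lay below both wild type arrays, with differences of -2.06 and -1.06 from the wild type mean. The difference was -1.56 ± 0.37 (SE, n = 2 arrays per group), or 2.94-fold lower, at a limma adjusted p of 0.160. With no background correction it was -1.01.

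DDIT3, known as CHOP, which promotes cell death under lasting stress, went opposite ways on the knockout arrays. It read 9.04 and 9.17 in wild type, 8.22 on knockout replicate 1 and 9.66 on knockout replicate 2. Its mean difference of -0.16 ± 0.51 (SE, n = 2 arrays per group) thus describes neither array, and under median scaling it was 0.05. ATF5, which serves in the mitochondrial stress response, read 9.64 and 9.27 in wild type cells and 9.50 and 8.11 in knockout. Knockout replicate 2 lay below both wild type arrays, at -1.35 from their mean, and knockout replicate 1 lay between them.

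The C/EBP partners of ATF4 read on opposite sides of wild type. CEBPB, a C/EBP factor of inflammation and differentiation, read 12.00 and 12.07 in wild type cells and 12.11 and 12.78 in knockout, differing by 0.41 ± 0.26 (SE, n = 2 arrays per group). Both knockout arrays were above wild type, replicate 1 by only 0.07. CEBPG, a short C/EBP protein that pairs with ATF4, read 9.29 and 9.36 in wild type cells and 8.56 and 9.22 in knockout, differing by -0.43 ± 0.26 (-0.21 under median scaling). Here it was knockout replicate 1 that lay farther out. NUPR1, a small stress-induced nuclear protein, was near background, reading 6.004 and 6.12 in wild type, where 1 of 2 arrays detected it, and 6.26 and 7.42 in knockout, where both did. Its difference was 0.77 ± 0.42. No factor passed over all genes, with limma adjusted p between 0.160 for ATF3 and 0.897 for DDIT3. Of the 7 factors 3 were positive and 4 negative, with a median of -0.16, or 0.05 under median scaling.

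An element that ATF4 and C/EBP proteins bind together, called the CARE, was searched for as the letters TGATGNAA, on both strands, in RefSeq promoter windows (build GRCh38.p14) from 250 bases before to 50 bases after a start site. Windows were found for 34 of the 42 genes, and 15 of these (44.1%) held a match in at least 1 window, against 4.46% of the 27305 genes in the table. Counted by window, of which a gene can have several, 15 of 54 held it (27.8%), against 3.62% of 35116. The list was drawn up from genes known for this pathway, so its higher share is no independent result. A match is a description of letters, not of binding. The 8 stretches below are those of the members whose match lies wholly before the start site. They are shown to let the element be set beside the differences of the genes that carry it, each 5′ to 3′ on the gene's strand with the match in capitals (TTNCATCA where the element runs the other way).
ATF3, chr1:212565190-212565249, plus strand: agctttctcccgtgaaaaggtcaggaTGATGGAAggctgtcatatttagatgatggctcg
CEBPG, chr19:33374045-33374104, plus strand: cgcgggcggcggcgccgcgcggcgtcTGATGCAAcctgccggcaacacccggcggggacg
ASNS, chr7:97872443-97872502, minus strand: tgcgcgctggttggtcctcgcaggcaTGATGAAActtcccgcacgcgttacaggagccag
SLC1A5, chr19:46784878-46784937, minus strand: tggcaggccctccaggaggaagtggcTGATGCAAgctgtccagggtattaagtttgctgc
AARS1, chr16:70289660-70289719, minus strand: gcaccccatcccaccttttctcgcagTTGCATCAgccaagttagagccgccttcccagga
GARS1, chr7:30594818-30594877, plus strand: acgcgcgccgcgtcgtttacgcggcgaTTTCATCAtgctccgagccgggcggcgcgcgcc
IARS1, chr9:92293698-92293757, minus strand: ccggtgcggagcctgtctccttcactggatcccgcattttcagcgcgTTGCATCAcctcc
CHAC1, chr15:40953236-40953295, plus strand: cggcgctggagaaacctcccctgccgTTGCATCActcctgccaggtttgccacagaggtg

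Genes that hold the element did not share a direction. Of the 12 measured genes with a match 4 were positive and 8 negative, from -1.56 for ATF3 to 0.39 for AARS1, with a median of -0.18. Both knockout arrays lay above wild type in 3 of them and below in 6, where 25.9% and 28.2% of all genes did. Of the 19 measured genes with a window and no match 11 were positive and 8 negative, with a median of 0.06. Under median scaling the 12 were 7 positive and 5 negative, as ASNS, IARS1 and TARS1 changed sign. Of the genes whose stretches are shown, the first 4 had negative differences, AARS1 and GARS1 positive ones, IARS1 lay at -0.01 and CHAC1 was not detected. ASNS overlapped between the groups, and its difference was 0.01 under median scaling.

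**Figure D2:**
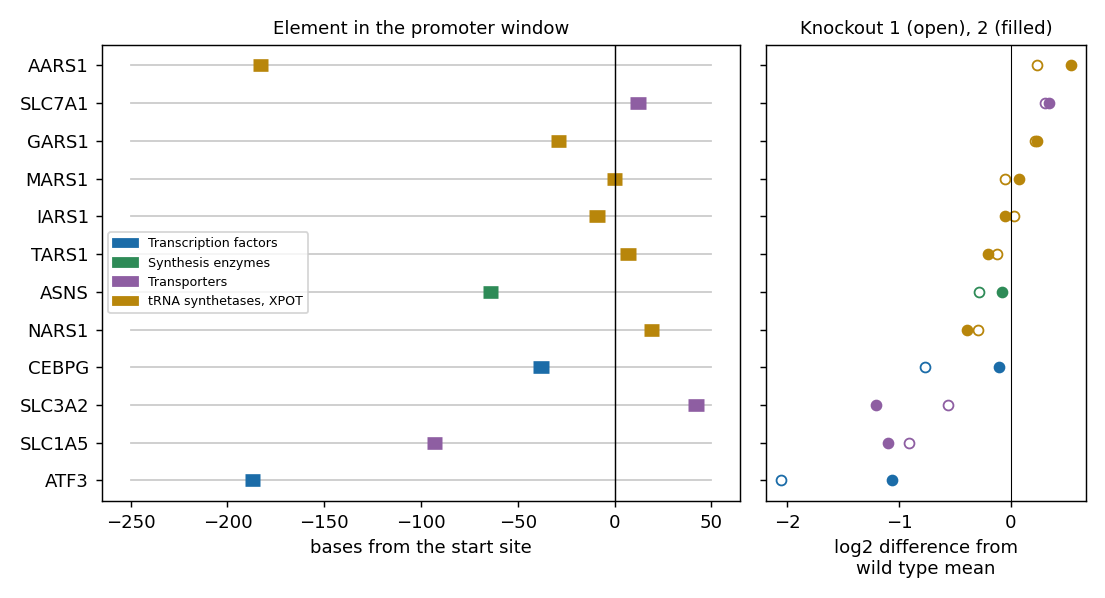
Left, where the element TGATGNAA lies in the promoter windows of the 12 measured members that hold it, in bases from the start site. Right, the log2 difference of knockout replicate 1 (open) and replicate 2 (filled) from the wild type mean for the same genes, from ATF3 at the bottom (-2.06 and -1.06) to AARS1 at the top (0.24 and 0.54).

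Feedback and effector genes showed no shared direction. TRIB3, a pseudokinase that ATF4 induces and that restrains it, read 9.09 and 9.46 in wild type cells and 9.35 and 9.89 in knockout. Its groups overlapped, with a difference of 0.35 ± 0.25 (SE, n = 2 arrays per group). PPP1R15A, known as GADD34, which directs a phosphatase to eIF2 and so restores translation, read 11.34 and 11.63 in wild type cells and 10.78 and 11.26 in knockout. Both knockout arrays were lower, with a difference of -0.47 ± 0.22, or -0.27 under median scaling.

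EIF4EBP1, a repressor of cap-dependent translation, read 7.15 and 7.19 in wild type cells and 6.78 and 6.69 in knockout. Within each group its arrays lay close together, and the difference was -0.43 ± 0.12 (SE, n = 2 arrays per group), or 1.35-fold lower, at a limma adjusted p of 0.180. It was -0.26 with no background correction and -0.18 under median scaling. VLDLR, a lipoprotein receptor induced in this response, read 6.64 and 6.69 in wild type cells and 7.03 and 7.87 in knockout, differing by 0.79 ± 0.31 (0.485 with no background correction). STC2, a secreted glycoprotein, read 6.43 and 6.47 against 6.13 and 6.31, differing by -0.23 ± 0.13. SESN2, a leucine sensor that restrains mTORC1, stayed near background between 5.97 and 6.13. CHAC1, which degrades glutathione and is a sensitive target of this pathway, gave 5.86 and 5.91 in wild type cells and 5.94 and 5.85 in knockout, none of them detected. These 6 measured genes had a median of -0.11, with 3 positive and 3 negative, and the limma adjusted p of each was 0.180 or above.

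The synthesis enzymes read in both directions. PHGDH, which takes the first step of serine synthesis from a glycolytic intermediate, read 10.95 and 11.26 in wild type cells and 12.11 and 12.23 in knockout. Both knockout arrays were higher, by 1.01 and 1.13, and the difference was 1.07 ± 0.16 (SE, n = 2 arrays per group), or 2.09-fold, at a limma adjusted p of 0.125. PSAT1, which takes the next step, read 10.94 on both wild type arrays and 10.34 and 9.86 in knockout. It was lower on both, at -0.59 and -1.08 from the wild type mean, with a difference of -0.84 ± 0.20, or 1.79-fold lower (limma adjusted p = 0.162). Under median scaling PSAT1 differed by -0.64, at an unadjusted limma p of 0.066. PSPH, which releases serine in the last step, read 8.86 and 8.19 in wild type cells and 8.95 and 7.57 in knockout and did not separate the groups. The enzymes of 1 short pathway thus lay on different sides of wild type.

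Downstream of serine, the mitochondrial one-carbon enzyme SHMT2, which splits serine into glycine and a one-carbon unit, gave 11.77 and 12.00 in wild type cells and 11.28 and 11.38 in knockout. The difference was -0.56 ± 0.14 (SE, n = 2 arrays per group), or 1.47-fold lower, at a limma adjusted p of 0.170, and -0.35 under median scaling. MTHFD2, which oxidises that one-carbon unit, differed by -0.26 ± 0.18, with both knockout arrays below wild type, replicate 2 at only -0.08 from its mean, and by -0.048 under median scaling. ALDH1L2, of the same mitochondrial folate pathway, was not detected.

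PYCR1, the last enzyme of proline synthesis, read 8.64 and 8.54 in wild type cells and 9.25 and 9.49 in knockout. Each knockout array was above wild type, and the difference was 0.78 ± 0.15 (SE, n = 2 arrays per group), or 1.72-fold, at a limma adjusted p of 0.133. Its dim second probe, near background, differed by 0.04, and the mean of both by 0.41. ASNS, asparagine synthetase, gave 10.33 and 10.57 against 10.16 and 10.37, overlapping, with a difference of -0.18 ± 0.16. PCK2, the mitochondrial enzyme that makes phosphoenolpyruvate, differed by 0.35 ± 0.15, with the mean of its probes at 0.14 and median scaling at 0.61. Of the 8 measured enzymes 3 were positive and 5 negative, and the groups stood apart in 3 of each sign, where 54.1% of all genes did. Their median of -0.22 was -0.01 under median scaling.

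**Figure D3:**
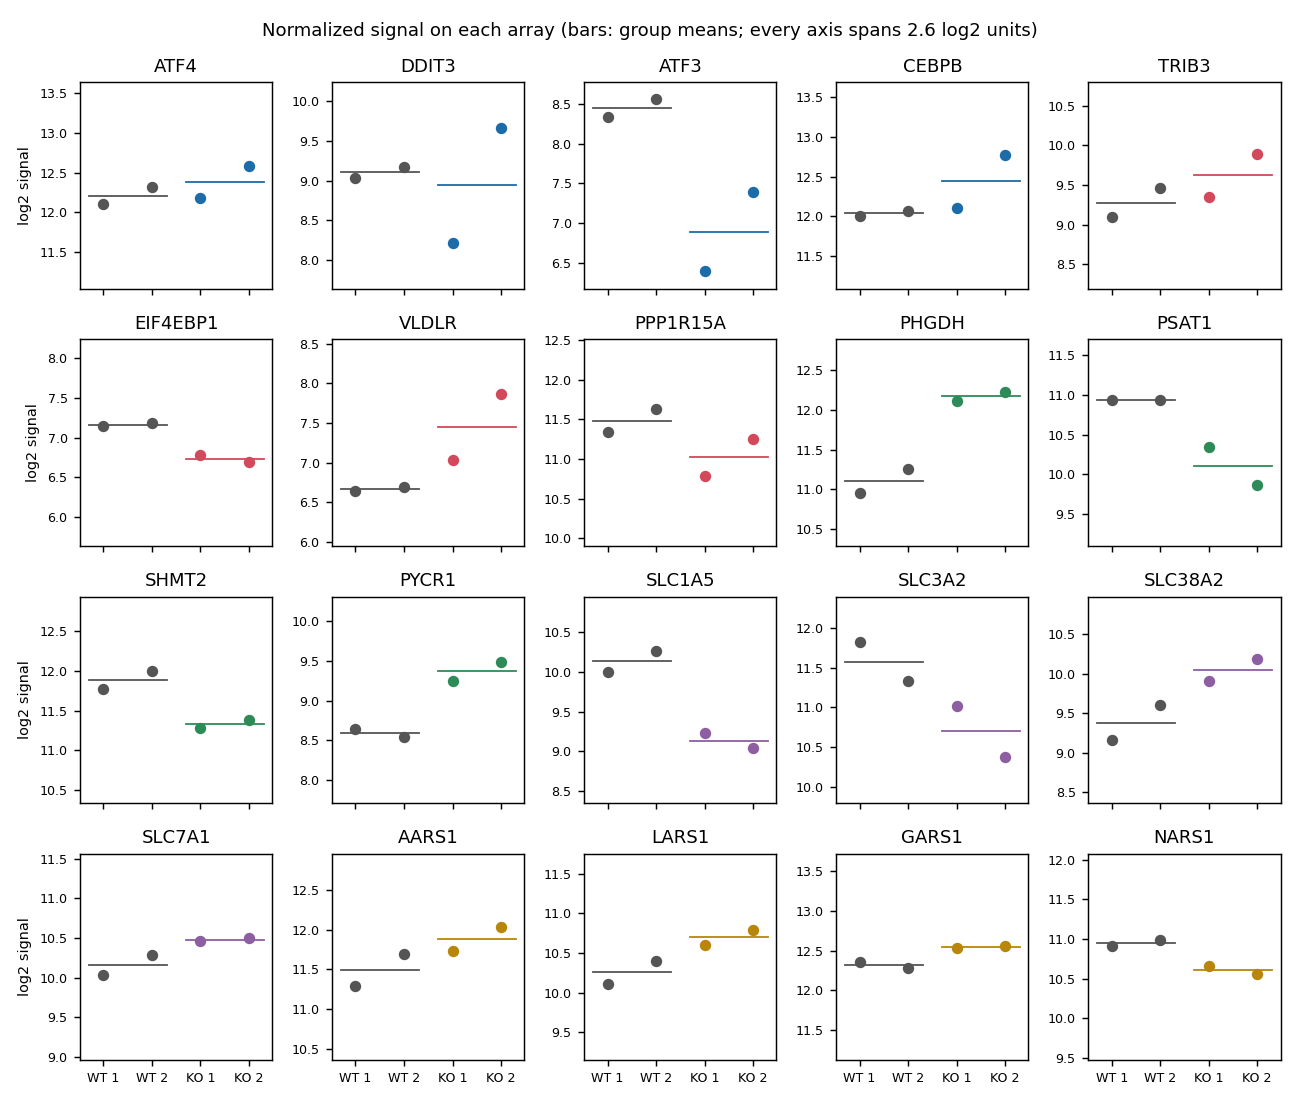
Normalized log2 signal of 20 members on each array, wild type in grey and knockout in the colour of the role, with bars at the group means and every vertical axis spanning the same number of log2 units. PHGDH, PYCR1 and SLC38A2 stand higher on both knockout arrays and ATF3, PSAT1, SHMT2, SLC1A5 and SLC3A2 lower, while DDIT3 has knockout points at 8.22 and 9.66 on either side of wild type.

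Among the transporters, SLC1A5 and SLC3A2 read lower and SLC38A2 and SLC7A1 higher. SLC1A5, known as ASCT2, a neutral amino acid exchanger that imports glutamine, gave 10.004 and 10.26 in wild type cells and 9.23 and 9.04 in knockout. The difference was -1.001 ± 0.16 (SE, n = 2 arrays per group), or 2.001-fold lower, at a limma adjusted p of 0.125. It was -0.80 under median scaling and -0.86 with no background correction, both short of 2-fold. The groups did not overlap, the knockout arrays being lower. SLC3A2, the heavy chain that carries several transporters to the cell surface, read 11.82 and 11.33 in wild type cells and 11.02 and 10.37 in knockout. Its difference was -0.88 ± 0.30, or 1.84-fold lower (limma adjusted p = 0.229). Under median scaling SLC3A2 differed by -0.68, at an unadjusted limma p of 0.069. Its dimmer probe differed by -0.98 but overlapped between the groups, at 10.25 and 9.005 in wild type cells and 9.54 and 7.75 in knockout.

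SLC7A5, the light chain LAT1, which pairs with SLC3A2 to import leucine, read 12.79 and 11.80 in wild type cells and 12.25 and 11.28 in knockout. Its groups overlapped, and the wild type arrays were about as far apart as the knockout arrays, with a difference of -0.53 ± 0.49 (SE, n = 2 arrays per group). The same order, replicate 1 above replicate 2 in each group by 0.5 or more at its brightest probe, was found in 2 other members, PSPH and XPOT, which carries tRNA out of the nucleus and read 8.45 and 7.53 against 8.21 and 7.11. SLC38A2, known as SNAT2, a sodium-coupled importer raised by amino acid shortage, read 9.16 and 9.60 in wild type cells and 9.91 and 10.18 in knockout. It was higher on both knockout arrays, by 0.66 ± 0.21, or 1.58-fold (limma adjusted p = 0.211). SLC7A1, an importer of arginine and lysine, gave 10.03 and 10.28 against 10.46 and 10.50, differing by 0.32 ± 0.14, or 0.51 under median scaling. With 2 positive and 3 negative of 5 measured, the median of -0.53 is the value of SLC7A5. It was -0.31 under median scaling and -0.27 with no detection filter, where the undetected SLC1A4 joins the list. Knockout replicate 1 alone gave -0.05 and replicate 2 alone -1.01, and the median was -0.04 without wild type replicate 1.

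The aminoacyl-tRNA synthetases load amino acids onto tRNAs, and their differences took both signs. The 12 measured genes of this group, XPOT included, ran from -0.34 for NARS1 to 0.44 for LARS1, with 7 positive and 5 negative and a median of 0.04 (0.25 under median scaling). NARS1, for asparagine, read 10.91 and 10.99 in wild type cells and 10.66 and 10.56 in knockout, differing by -0.34 ± 0.12 (SE, n = 2 arrays per group), or -0.16 under median scaling. It was the only synthetase listed here with an unadjusted limma p under 0.05, and its limma adjusted p was 0.237. LARS1, for leucine, gave 10.11 and 10.40 against 10.60 and 10.79, differing by 0.44 ± 0.16.

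AARS1, for alanine, read 11.29 and 11.70 in wild type cells and 11.73 and 12.03 in knockout, differing by 0.39 ± 0.21 (SE, n = 2 arrays per group). Its lower knockout array was just above its higher wild type array. GARS1, for glycine, read 12.36 and 12.29 against 12.53 and 12.56, differing by 0.22 ± 0.12. The others, WARS1, SARS1, MARS1, EPRS1, IARS1, YARS1 and TARS1, differed by between -0.17 and 0.18. In 7 of the 12 the difference lay within the middle 50% of all genes, which ran from -0.24 to 0.22, a band that holds that share by construction, and in 0 outside the middle 90%. On knockout replicate 2 alone XPOT lay at -0.885.

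**Figure D4:**
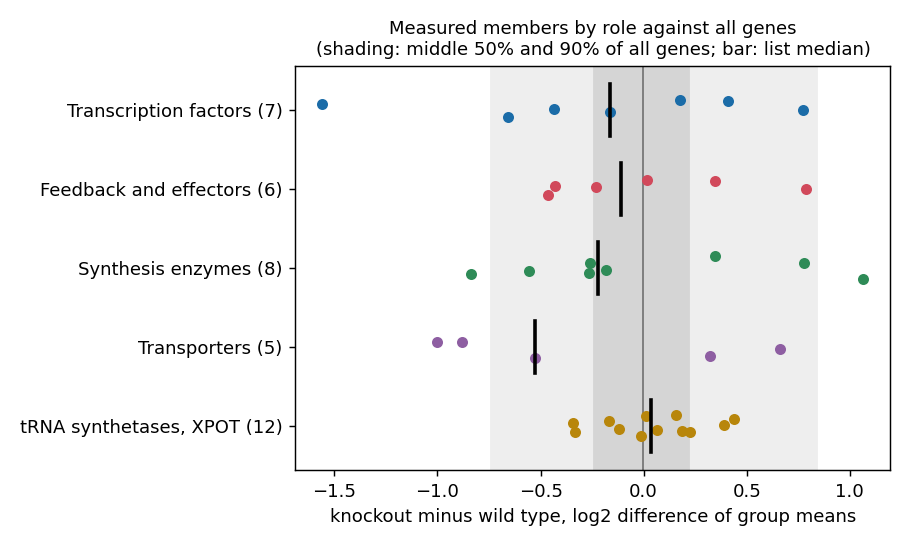
Log2 differences of group means for the measured members by role, 1 point a gene with list medians as black bars, over shading for the middle 50% and 90% of all 11311 genes (the wider band from -0.74 to 0.84). The 5 members outside the wider band are ATF3, PSAT1, PHGDH, SLC1A5 and SLC3A2, and the synthetases with XPOT run from -0.34 to 0.44.

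Other genes of the pathway, taken from lists of known members, were read in the same fit. Of 18 measured genes of the eIF2 kinases, eIF2, its exchange factor eIF2B and its phosphatases, 2 (11.1%) had an unadjusted limma p under 0.05, both lower, against 20.2% of all genes. They were PPP1CC, a catalytic subunit of the phosphatase, at -0.46 ± 0.12, and the eIF2B subunit EIF2B2 at -0.35 ± 0.13 (SE, n = 2 arrays per group). EIF2AK3, known as PERK, the kinase that senses misfolded protein in the endoplasmic reticulum, read 6.36 and 6.41 in wild type cells and 6.66 and 7.08 in knockout, differing by 0.48 ± 0.18. The list median was -0.09.

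Of 23 measured genes among other targets and partners of ATF4 and CHOP, 3 were higher and 2 lower at an unadjusted limma p under 0.05, or 21.7% against 20.2% of all genes, with a median of 0.03. HMOX1, which breaks down haem and also answers to oxidative stress, gave 7.86 and 6.75 in wild type cells and 9.96 and 9.90 in knockout. Its difference was 2.63 ± 0.40 (SE, n = 2 arrays per group), or 6.20-fold, at a limma adjusted p of 0.125. ATG3, an enzyme of autophagosome formation, differed by -0.55 ± 0.15, and DDIT4, an mTOR inhibitor that low oxygen also induces, read higher on both knockout arrays, with 11.76 and 12.62 against 10.42 and 9.77.

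Of 17 measured further enzymes of serine, folate, proline and glutamine metabolism, 2 were higher and 2 lower at that threshold, or 23.5% against the same 20.2%, with a median of -0.11. SHMT1, the cytosolic counterpart of SHMT2, gave 8.85 and 8.79 in wild type cells and 8.16 and 7.95 in knockout, differing by -0.76 ± 0.14 (SE, n = 2 arrays per group). MTHFD1L, the mitochondrial formate-releasing enzyme, differed by -0.53 ± 0.13, and ASS1, which makes argininosuccinate for arginine synthesis, by 1.303 ± 0.44. Of 13 measured further amino acid transporters 10 were negative, against 5748 of all 11311 genes, with a median of -0.25. Near background lay SLC38A5, SLC38A7, SLC43A2 and SLC16A10 among the negative ones, and SLC43A1 among the positive ones. An unadjusted limma p under 0.05 was reached by 2 (15.4%, against 20.2% of all genes). These were SLC7A2, a cationic amino acid importer, at -0.71 ± 0.20 and the glutamine importer SLC38A1 at -0.37 ± 0.13, whereas SLC16A10, an aromatic amino acid carrier, was detected on 2 wild type and 0 knockout arrays, so that it passed the detection filter only through the group where it read higher.

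Of 7 measured cytosolic synthetase genes outside the members, 3 were positive and 4 negative, with a median of -0.16. FARSA, for phenylalanine, differed by -0.51 ± 0.15, VARS1, for valine, by -0.36 ± 0.15 and KARS1, for lysine, by -0.27 ± 0.18 (SE, n = 2 arrays per group). None of the genes of these companion lists passed over all genes.

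Markers of other cell types were read beside these values. Of 11 leukocyte markers 4 were measured, all with positive differences, and PTPRC, CD3E and LYZ were detected on 0 arrays. CD14, a monocyte marker, read 6.63 and 6.64 in wild type cells and 7.45 and 8.36 in knockout. The summed linear signal of the 4 was 1301 and 2088 in wild type cells and 1590 and 3090 in knockout. This sum mainly follows CD68, by far the brightest of the 4. CD68 overlapped between the groups, at 10.03 and 10.81 in wild type cells and 10.27 and 11.28 in knockout. Of 11 fibroblast markers 5 were measured, with COL3A1, LUM and FAP detected on 0 arrays. Their summed signals were 351 and 319.9 in wild type cells and 410.5 and 659.8 in knockout. In wild type cells all but PDGFRB read near background. PDGFRB, detected on all 4 arrays, read 6.55 and 6.06 in wild type cells and 7.10 and 7.68 in knockout. It differed by 1.09 ± 0.29 (SE, n = 2 arrays per group), at a limma adjusted p of 0.172. ACTA2 read 5.97 and 6.12 in wild type cells and 6.13 and 7.996 in knockout, standing clearly higher on knockout replicate 2 only. Among the 5 differences 3 were positive and 2 negative. Of the 5, COL1A1 was detected on 0 wild type and 2 knockout arrays, so it passed the filter only through the group where it read higher. DCN passed it on detection p-values that did not follow its signal, as described at the end. Of 5 endothelial markers 0 were measured. The sums were highest on knockout replicate 2, and their part in the members' differences was not tested.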

How the data were processed

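Total RNA of 4 samples, 2 wild type and 2 mH2A1.2 knockout, was hybridised to Illumina bead arrays on 1 chip. The authors deposited, per the file headers, a table of probe intensity that was not normalized, with detection p-values, and a value table of log2 values of unstated normalization. Its columns correlated with the same array at 0.954 to 0.975, after centring each probe.

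Intensities were background-corrected by normexp with the detection p-values (offset 16), taken to log2 and quantile normalized in limma 3.58.1 (R 4.3.3). Filtering on a detection p below 0.05, met on 2 or more arrays, kept 19752 probes, of which 14977 carried 1 gene symbol, and the brightest probe stood for each of 11311 genes. Groups were compared with limma's moderated test (lmFit, eBayes), adjusted by Benjamini-Hochberg over all genes and tested on simulated data. No counts underlie the intensities, so the number of arrays limits the precision.

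Values on every array are given for ATF4, DDIT3, TRIB3, ASNS and CHAC1 and for the 4 members of each role with the smallest unadjusted p. ATF5, PSPH, SLC7A5 and XPOT were added after their values were seen. Up to 3 genes with the smallest p are named from each companion list. The members and lists were chosen with earlier results of these data known. Alternatives were another background correction or offset, median scaling, other detection filters, the mean of probes, a trended robust fit, the authors' values, a replicate block and leaving out each array.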

Additional observations from a re-analysis of the deposited data

How the results depend on the processing

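Of the 38 member differences 26 kept their sign under all alternatives run and 12 did not. Scaling to equal medians left 6 members and 1492 genes at an unadjusted limma p under 0.05, and moved the list medians to 0.069 (all members), 0.051 (transcription factors), -0.0057 (enzymes), -0.31 (transporters) and 0.25 (synthetases). It turned DDIT3 to 0.051, ASNS to 0.0082, IARS1 to 0.18, YARS1 to 0.088 and TARS1 to 0.034. The feedback median was 0.0065 with no detection filter, the value of CHAC1, which was not detected on any array. At a detection p under 0.01 on all 4 arrays, where SESN2 drops out, it was -0.23, the value of STC2. NUPR1 drops out there too, and the median of the transcription factors was then -0.30. The transporter median was -0.27 with no detection filter, and the enzyme median was -0.15 over the mean of probes. With no detection filter the transporter list gains SLC1A4, also not detected on any array. The cause of the other shifts was not tested.

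Leaving out each array in turn, where the lone array is assumed to vary like the other group, gave 0 to 11 members and 0 to 3293 genes called, and 3 to 20 members and 673 to 4659 genes at an unadjusted p under 0.05. The upper ends came without knockout replicate 1. List medians ranged from -0.06 to 0.02 (all members), -0.23 to 0.37 (transcription factors), -0.19 to -0.02 (feedback), -0.13 to -0.036 (enzymes), -1.01 to -0.04 (transporters) and -0.0055 to 0.16 (synthetases). Signs turned for ATF4 (-0.023 to 0.37), ATF5 (-1.35 to 0.038), DDIT3 (-0.89 to 0.56), SESN2 (-0.066 to 0.10), PSPH (-0.95 to 0.43), MARS1 (-0.12 to 0.14), EPRS1 (-0.074 to 0.20), IARS1 (-0.125 to 0.10), YARS1 (-0.26 to 0.022) and XPOT (-0.885 to 0.22).

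The labels do not say that replicate numbers pair the samples. With the number as a replicate block, 0 genes were called by limma, and 14 members and 2912 genes had an unadjusted p under 0.05. SLC7A5 was then at -0.53 ± 0.13 (SE), with a limma unadjusted p of 0.0153 and an adjusted p of 0.126. The difference between replicates 1 and 2 correlated between the groups at 0.44 across all genes and 0.68 across the 38 members, a description across genes, which are not independent. With 2 arrays a group, signal near background (NUPR1, SESN2) limits the values further.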

Other observations

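The mitochondrial aminoacyl-tRNA synthetases, which charge tRNAs inside mitochondria, were measured in 16 of 17 genes, with 7 positive and 9 negative differences and -0.09 as the median. By limma's unadjusted p under 0.05, 1 was higher and 3 lower (25%, against 20.2% of all genes), and 0 passed over all genes. WARS2, for tryptophan, read 7.89 and 7.90 in wild type cells and 7.32 and 7.34 in knockout, differing by -0.56 ± 0.11 (SE, n = 2 arrays per group). AARS2, for alanine, gave 7.47 and 7.54 in wild type cells and 6.79 and 6.99 in knockout, whereas its cytosolic counterpart AARS1 read higher in knockout. LARS2, for leucine, differed by -0.71 ± 0.23, and its counterpart LARS1 by 0.44 ± 0.16. The difference between the counterparts was not tested.

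In the table of intensities, 132 probes within a span of 147 consecutive lines carried detection p-values that did not follow their signal. Their detection p-values were 0.05 or below, with a median of 0.0287. On at least 2 arrays, and on all 4 in 113 of them, the value differed by over 0.02 from that of the 51 probes nearest in signal. All 132 passed the detection filter, and 31 would pass with the p of those neighbours. None is a probe of the 42 genes. DCN, a fibroblast marker, and EGFR are among their genes. Leaving these probes out, an alternative chosen after seeing the data, left the members' counts at 3 higher and 7 lower.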
